A study of Mus musculus with 4 samples.

Results

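The antiviral effector genes of the interferon response described here were chosen by symbol: Ifit1, Ifit2, Ifit3, Ifit3b, Rsad2, Isg15, Usp18, Mx1, Mx2 and Cmpk2. Of these 10 symbols, 8 were found among the 32285 gene features of the count matrices, and Mx1 and Mx2 were not analysed here. The genes were measured by droplet single-cell RNA sequencing in 4 tumours grown from KPC46, an organoid line of mouse pancreatic ductal adenocarcinoma (PDAC), in B6/129 F1J mice. A pair of mice received TAK-981 (subasumstat), an inhibitor of the enzyme that activates the small protein modifier SUMO, and a pair received the vehicle Cremophor. All 4 tumours carried the same KPC46 line, each library came from 1 mouse, and dose, schedule, sex and age are not given in the sources used here. The comparisons ask how strongly each cell type of a tumour expressed these genes and whether TAK-981 changed that.

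Type I interferon binds its receptor on almost any nucleated cell, and signalling from the receptor activates the transcription factor complex ISGF3. ISGF3 binds interferon-stimulated response elements, DNA sites built from repeats of GAAA, in the promoters of many genes. Isg15 is a ubiquitin-like protein attached to other proteins, and Usp18 removes it and also blocks signalling at the receptor. Rsad2 (viperin) makes a chain-terminating nucleotide from CTP, and Cmpk2, its neighbour, is a nucleotide kinase. The Ifit proteins bind viral or incompletely capped RNA, with Ifit1 making the RNA contact and Ifit2 and Ifit3 acting as its partners. SUMO attachment is known to restrain transcription of interferon genes.

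On GRCm38, the 4 Ifit genes lay on the plus strand of chromosome 19 within 99316 bases: Ifit2 at chr19:34550694-34576419, Ifit3 at chr19:34583531-34588731, Ifit3b at chr19:34607970-34613401 and Ifit1 at chr19:34640871-34650009. Rsad2 (chr12:26442746-26456452, minus strand) and Cmpk2 (chr12:26469204-26479837, plus strand) were divergent neighbours whose 5′ ends were 12751 bases apart. Isg15 lay at chr4:156199424-156200818 on the minus strand and Usp18 at chr6:121245906-121270917 on the plus strand. The Ifit3 and Ifit3b transcripts were 98.0% identical over their aligned bases, with 34 mismatches. Of the windows of 90 bases in the last 500 bases, near where 3′ libraries are read, 6.57% of those of Ifit3 occurred unchanged in Ifit3b and 0% of those of Ifit3b occurred in Ifit3. How the counting placed reads from the stretches that both share was not tested, and the separate levels of the pair are uncertain to that extent.

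The promoter windows of the members are shown for the letters of the ISGF3 response element, whose number and spacing differed between genes and which were the same in Ifit3 and Ifit3b. The RefSeq promoter table (GRCm38.p6) held windows for 7 of the 8 genes and had none for Usp18. The motif GAAANNGAAA, or its reverse complement TTTCNNTTTC, was searched in the 250 bases before each start and occurred in 2.98% of all 32851 windows and in windows of 5 of the 7 members. Capitals mark the matches, and each stretch is printed 5′ to 3′ on the strand of its gene.
Isg15, chr4:156200845-156200926, minus strand: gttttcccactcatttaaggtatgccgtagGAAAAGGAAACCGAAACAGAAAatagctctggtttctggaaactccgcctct
Rsad2, chr12:26456533-26456602, minus strand: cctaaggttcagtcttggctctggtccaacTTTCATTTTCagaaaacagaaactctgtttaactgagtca
Ifit1, chr19:34640755-34640843, plus strand: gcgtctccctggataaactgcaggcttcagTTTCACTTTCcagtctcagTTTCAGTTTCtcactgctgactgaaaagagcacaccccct
Ifit3, chr19:34583343-34583446, plus strand: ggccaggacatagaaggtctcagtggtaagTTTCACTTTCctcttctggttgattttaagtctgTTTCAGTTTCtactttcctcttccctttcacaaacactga
Isg15 held 3 overlapping matches between 78 and 66 bases before its start, and Rsad2 held 1 match at 120 bases. Ifit1 held matches at 104 and 85 bases, and Ifit3 at 156 and 122 bases. The Ifit3b window (chr19:34607739-34607842) held the same letters as the Ifit3 stretch, at 188 and 154 bases before its start. The windows of Ifit2 and Cmpk2 held no match to these letters. A match is a description of the sequence and was not tested for binding.

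The cells that passed the quality limits numbered 2214 and 3110 in TAK-981 tumours 1 and 2, and 4408 and 4130 in vehicle tumours 1 and 2. Their median depth was 5025 and 12831 unique molecular identifiers (UMIs, one per captured RNA molecule) in TAK-981 tumours and 2269 and 4153 UMIs in vehicle tumours, and the median mitochondrial share was 6.90 and 5.11% in TAK-981 tumours and 2.93 and 2.71% in vehicle tumours. Libraries shared between 1 and 10 cell barcodes per pair. Clusters were named from marker genes after all interferon genes on the fixed lists had been left out of the clustering genes, and 7 named classes had at least 15 cells in every library. Names mean resemblance to a cell type, since no protein was measured, and rebuilt classes can differ from those of the study. Epithelial-like cells, the lineage of a ductal adenocarcinoma, had a summed level of 8 epithelial markers of 4736 and 5113 CPM in TAK-981 tumours and 3548 and 4423 CPM in vehicle tumours, with 2 of the 8 at 0 in vehicle tumour 2. In the neutrophil-like class, TAK-981 tumours gave 39 and 42 cells and vehicle tumours 550 and 381. A further cluster, led by Hcar2 and Ccl3, scored best on neutrophil markers but stayed unnamed for its low UMIs. It held 7 and 63 cells in TAK-981 tumours and 208 and 79 in vehicle tumours. Its cells are in no class, so neutrophil-like results leave them out.

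Levels are in CPM, which scales a gene's UMIs in a class of a library to a class total of 1000000 UMIs, and compare 1 gene across classes and tumours. Fewer expressing cells and less RNA per cell cannot be told apart in such sums. Where values of the treatments are said not to overlap, the share of all genes that did so was not counted. Such counts of genes or markers thus have no background beside them. Neutrophil-like cells had the highest level of the 7 classes in 21 of the 32 pairs of a gene and a library, endothelial-like cells in 7, T or NK-like cells in 3 and epithelial-like cells in 1. Some of these ranks rested on few UMIs or cells. The T or NK-like pairs all lay in vehicle tumour 2, on 1 or 2 UMIs each. Most endothelial-like pairs lay in vehicle tumour 1, where 1 cell held 148 of the 191 UMIs of the 8 genes. The neutrophil-like pairs included Cmpk2 on 1 UMI in TAK-981 tumour 1 and in vehicle tumour 2. Across the 8 genes together, neutrophil-like cells had 1961 and 4377 CPM in TAK-981 tumours and 1028 and 186.3 CPM in vehicle tumours. Epithelial-like cells had 124.7 and 51.8 CPM in TAK-981 tumours and 18.77 and 11.02 CPM in vehicle tumours. Vehicle tumour 1 lay above vehicle tumour 2 in every one of the 7 classes, and in 6 of them TAK-981 tumour 2 lay above TAK-981 tumour 1, with epithelial-like cells as the exception.

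**Figure D1:**
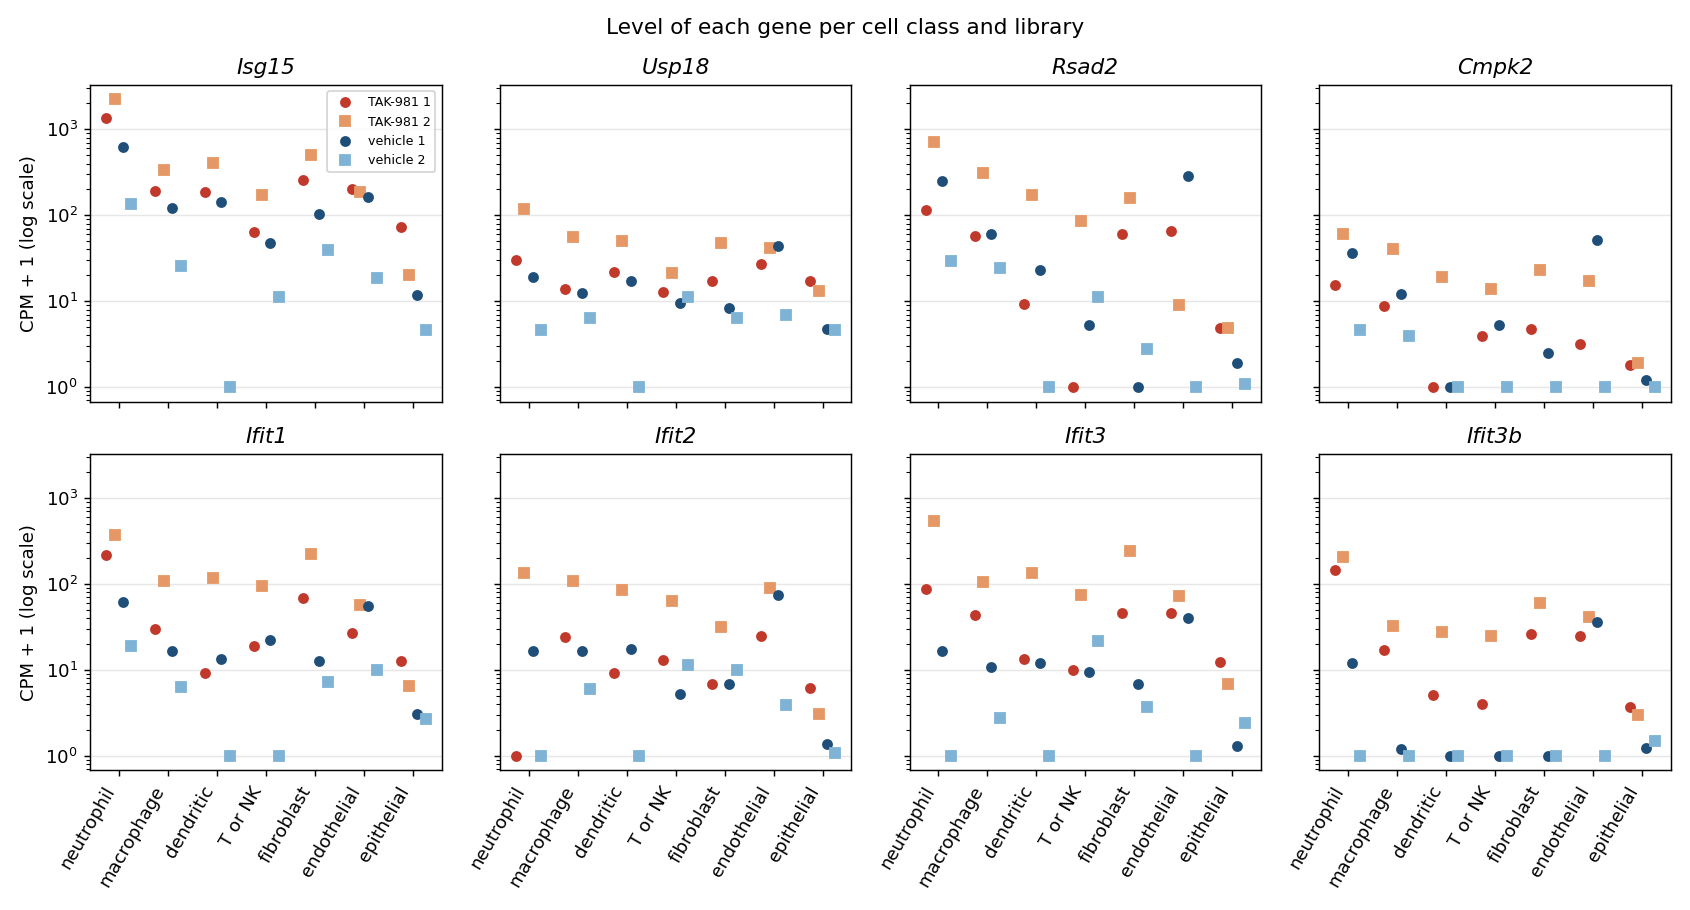
Level of each of the 8 genes (CPM + 1, log scale) in 7 cell classes, with 1 point per library and TAK-981 tumours to the left of vehicle tumours. Isg15 was highest in neutrophil-like cells in each library, from 132.5 to 2233 CPM, and epithelial-like cells were near the bottom of most panels.

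Isg15, the modifier, was highest in neutrophil-like cells in all 4 tumours. It had 1356 and 2233 CPM there in TAK-981 tumours and 619 and 132.5 CPM in vehicle tumours. Fibroblast-like cells had 259.7 and 500.9 CPM in TAK-981 tumours and 102.5 and 38.7 CPM in vehicle tumours. Both classes had TAK-981 values above both vehicle values. Macrophage or monocyte-like cells had 189.6 and 333.7 CPM in TAK-981 tumours and 121.4 and 24.9 CPM in vehicle tumours. In epithelial-like cells the Isg15 level was 72.9 and 19.4 CPM in TAK-981 tumours and 10.9 and 3.60 CPM in vehicle tumours. TAK-981 values were thus the higher ones in each of these classes without overlap, while the vehicle pair itself differed several-fold. Dendritic-like cells had 187.2 and 408.2 CPM in TAK-981 tumours and 140.7 and 0 CPM in vehicle tumours. Endothelial-like cells had 203.2 and 184.6 CPM in TAK-981 tumours and 163.2 and 17.8 CPM in vehicle tumours. T or NK-like cells were lower, with 62.7 and 173.1 CPM in TAK-981 tumours and 46.4 and 10.3 CPM in vehicle tumours. Within libraries, fibroblast-like cells lay above macrophage-like and dendritic-like cells in both TAK-981 tumours and in vehicle tumour 2, and below both in vehicle tumour 1. The differences among these 3 classes were not tested.

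Usp18, the ISG15 protease, had classes closer to each other. Macrophage-like cells had 12.9 and 54.9 CPM in TAK-981 tumours and 11.5 and 5.41 CPM in vehicle tumours. Its level in epithelial-like cells was 16.0 and 12.1 CPM in TAK-981 tumours and 3.69 and 3.60 CPM in vehicle tumours. In TAK-981 tumour 1 the macrophage-like level was therefore below the epithelial-like one, and in the other 3 tumours above it. The Usp18 level in neutrophil-like cells was 28.8 and 117.5 CPM in TAK-981 tumours and 17.9 and 3.58 CPM in vehicle tumours, from 2 and 8 UMIs in TAK-981 tumours and 8 and 1 in vehicle tumours. Fibroblast-like cells had 16.2 and 46.4 CPM in TAK-981 tumours and 7.43 and 5.40 CPM in vehicle tumours. The TAK-981 ranges of Usp18 in neutrophil-like, macrophage-like and fibroblast-like cells overlapped. The gene model Gm44148 on the opposite strand overlaps Usp18.

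Rsad2 was far higher in neutrophil-like and macrophage-like than in epithelial-like cells. Other classes reached such levels in some tumours. Endothelial-like cells had 64.8 and 8.03 CPM in TAK-981 tumours and 283.6 and 0 CPM in vehicle tumours. Fibroblast-like cells had 59.8 and 157.7 CPM in TAK-981 tumours and 0 and 1.80 CPM in vehicle tumours. Dendritic-like cells had 8.32 and 170.4 CPM in TAK-981 tumours and 21.9 and 0 CPM in vehicle tumours. Neutrophil-like cells had 115.4 and 719.7 CPM in TAK-981 tumours and 252.5 and 28.7 CPM in vehicle tumours, so the treatments overlapped. Macrophage-like cells had 55.7 and 313.2 CPM in TAK-981 tumours and 60.2 and 23.4 CPM in vehicle tumours, again overlapping. Epithelial-like cells had 3.87 and 3.87 CPM in TAK-981 tumours and 0.905 and 0.0934 CPM in vehicle tumours. Cmpk2, the neighbour of Rsad2, had 7.76 and 39.4 CPM in macrophage-like cells of TAK-981 tumours and 11.1 and 2.89 CPM in those of vehicle tumours. In epithelial-like cells Cmpk2 had 0.811 and 0.927 CPM in TAK-981 tumours and 0.226 and 0 CPM in vehicle tumours.

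Among the RNA-binding genes, Ifit1 in neutrophil-like cells had 216.3 and 367.2 CPM in TAK-981 tumours and 60.3 and 17.9 CPM in vehicle tumours. Ifit3 in neutrophil-like cells had 86.5 and 543.5 CPM in TAK-981 tumours and 15.6 and 0 CPM in vehicle tumours. For both genes the treatments did not overlap. Macrophage-like cells had an Ifit1 level of 29.2 and 107.7 CPM in TAK-981 tumours and 15.7 and 5.41 CPM in vehicle tumours, and epithelial-like cells one of 11.6 and 5.56 CPM in TAK-981 tumours and 2.11 and 1.73 CPM in vehicle tumours. Ifit3 in epithelial-like cells had 11.5 and 5.85 CPM in TAK-981 tumours and 0.302 and 1.40 CPM in vehicle tumours. Ifit1 was thus highest in neutrophil-like cells in all 4 tumours, and the epithelial-like cells had higher TAK-981 than vehicle values of both genes. Ifit2 differed from these in that neutrophil-like cells of TAK-981 tumour 1 and of vehicle tumour 2 held no Ifit2 UMI, against 132.2 CPM in TAK-981 tumour 2 and 15.6 CPM in vehicle tumour 1. Its macrophage-like level was 23.5 and 107.5 CPM in TAK-981 tumours and 15.7 and 5.05 CPM in vehicle tumours. Ifit3b was rare under vehicle in several classes: macrophage-like cells held 82 and 179 Ifit3b UMIs in TAK-981 tumours and 1 and 0 in vehicle tumours, and fibroblast-like cells held 34 and 82 in TAK-981 tumours and 0 and 0 in vehicle tumours.

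In the fit over the 4 libraries, all 8 genes were higher in neutrophil-like than in epithelial-like cells, although not in each tumour. The quasi-likelihood F test of edgeR, on summed UMIs with the library as a block, called 8 of 8 members higher at an adjusted p below 0.05, where 18% of 9959 genes were called higher. Isg15 was 18.6 and 115.2 times the epithelial-like level in TAK-981 tumours and 56.6 and 36.8 times in vehicle tumours, with a log2 fold change of 5.32 ± 0.44 (SE) and an adjusted p of 6.2e-10. For Rsad2 the log2 fold change was 7.30 ± 0.71 (adjusted p = 1.1e-08), with ratios of 29.8 and 186 in TAK-981 tumours and 279.1 and 306.8 in vehicle tumours. Both genes were higher in neutrophil-like cells of 4 of 4 libraries. Usp18 had the smallest difference, 1.89 ± 0.62 (adjusted p = 0.0124), and was higher in 3 of 4 libraries. Ifit2, called at 4.48 ± 1.17 (adjusted p = 0.00241), was higher in 2 of 4 libraries and had no UMI in the neutrophil-like cells of the other two. Ifit3 and Ifit3b were higher in 3 of 4 libraries each, with 0 UMIs in the neutrophil-like cells of vehicle tumour 2, where epithelial-like cells had 1.40 and 0.514 CPM. Without vehicle tumour 1 fewer members were called. Here and below, shares of all genes belong to the fit over 4 libraries, and none is given for fits that leave a tumour out.

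Macrophage or monocyte-like cells were above epithelial-like cells for 7 of 8 members, where 31.4% of genes were called higher. The pair on chromosome 12 led, with a log2 fold change of 5.80 ± 0.62 for Rsad2 (adjusted p = 2.1e-08) and 5.07 ± 0.49 for Cmpk2 (adjusted p = 6.0e-09). Ifit2 followed at 4.38 ± 0.58 (adjusted p = 5.2e-07), Isg15 at 2.58 ± 0.39 (adjusted p = 3.0e-06) and Usp18 at 0.88 ± 0.33 (adjusted p = 0.0203). Isg15 ratios were 2.60 and 17.2 in TAK-981 tumours and 11.1 and 6.92 in vehicle tumours. Ifit3b did not pass, with 0.61 ± 1.45 (adjusted p = 0.725) and ratios of 6.08 and 15.8 in TAK-981 tumours and 0.911 and 0 in vehicle tumours. Taken from the TAK-981 libraries alone the count was 7 of 8 and from the vehicle libraries alone 5 of 8, both chosen as fits after the data had been seen.

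Neutrophil-like and macrophage-like cells, both myeloid, also differed from each other. Of 8 members, 4 were called higher in neutrophil-like cells, where 10.7% of genes were. Isg15 was 7.15 and 6.69 times the macrophage-like level in TAK-981 tumours and 5.10 and 5.33 times in vehicle tumours, with a log2 fold change of 2.74 ± 0.39 and an adjusted p of 9.7e-06. Ifit1 had 2.25 ± 0.49 (adjusted p = 0.00118), higher in 4 of 4 libraries, and Ifit3b had 4.35 ± 1.03 (adjusted p = 0.00277), higher in 3 of 4. Rsad2 had 1.505 ± 0.574 (adjusted p = 0.0473). Ifit2 had 0.10 ± 0.85 and an adjusted p of 0.980. The Isg15 ratio thus lay between 5.10 and 7.15 in the 4 tumours although its level in neutrophil-like cells spanned 132.5 to 2233 CPM. Without vehicle tumour 1 the count of members called was 1.

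Endothelial-like cells had 8 of 8 members above epithelial-like cells (21.9% of genes) and dendritic-like cells 6 of 8 (23.1% of genes). Both counts were 0 without vehicle tumour 1, and the dendritic-like count was 2 without TAK-981 tumour 2. In vehicle tumour 1, a single endothelial-like cell of 61 held 148 of the 191 UMIs of the 8 genes, 62 of the 73 Rsad2 UMIs and all UMIs of Ifit1, Ifit3 and Ifit3b. Dendritic-like cells of vehicle tumour 2 numbered 33 and held no UMI of any of the 8 genes. By the limit of 3 counts that a count of 0 allows, up to 9.09% of such cells could have had a UMI of a given gene, and the upper bound of the exact 95% binomial interval was 10.6%. Both limit cells with a UMI, not cells expressing the gene.

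Fibroblast-like cells had 4 of 8 members above epithelial-like cells (28.7% of genes): Isg15 with 2.99 ± 0.40 (adjusted p = 1.5e-06), Ifit1 with 2.80 ± 0.59 (adjusted p = 0.000309), Ifit2 with 3.48 ± 0.80 (adjusted p = 0.000780) and Ifit3 with 2.61 ± 1.00 (adjusted p = 0.0303). The count was 7 in the TAK-981 libraries alone and 2 in the vehicle libraries alone, and it was 7 without TAK-981 tumour 1. T or NK-like cells had 1 of 8, Ifit1 with 2.16 ± 0.88 (adjusted p = 0.0457), where 20.2% of genes were called higher. That call was lost without TAK-981 tumour 2 and without vehicle tumour 1, and 6 members were called without TAK-981 tumour 1. A small epithelial-like cluster with the highest marker score (leading genes Epcam, Cldn3 and Sftpd) carried 1264 and 896.5 CPM of the 8 genes in TAK-981 tumours and 950 CPM in vehicle tumour 1. Without it, a fit added after the data had been seen, T or NK-like cells had 3 of 8 and fibroblast-like cells 5 of 8.

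**Figure D2:**
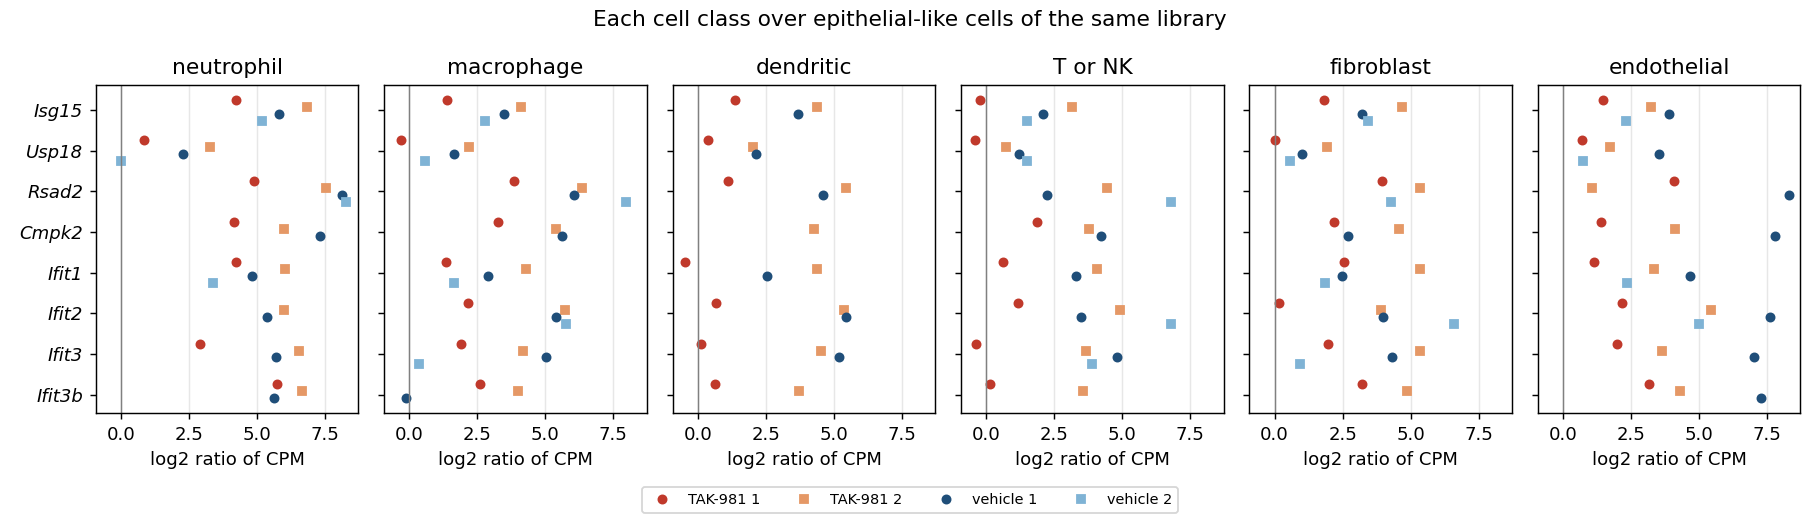
Log2 ratio of CPM of 6 classes over epithelial-like cells of the same library, for 8 genes, with 1 point per library and pairs in which either level was 0 left out. In the neutrophil-like panel Isg15 lies between ratios of 18.6 and 115.2, and the Usp18 points lie nearest to 0.

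Under TAK-981, 4 of these genes were higher in fibroblast-like cells: Rsad2, Ifit1, Ifit3 and Ifit3b, with Ifit3 and Ifit3b similar in sequence. Of the 7 members that passed the filter on low counts, edgeR's quasi-likelihood F test over 4 libraries called 4 higher and 0 lower, where 0.258% of 8929 genes were called higher. In vehicle tumours 1 and 2, Rsad2 had 0 and 2 UMIs, Ifit3 4 and 3, Ifit3b 0 and 0 and Usp18 5 and 6. Their counts in TAK-981 tumours thus carried these genes past the filter, and a call of lower was hardly open to them. Ifit1, with 8 and 7 UMIs in vehicle tumours, also passed partly through its TAK-981 counts. The median log2 fold change of the 7 was 3.83, and that of all genes tested in the class was -0.0014. The 4 calls were kept when any 1 tumour was left out, and Rsad2 and Ifit3b kept theirs when doublets were not removed. The Ifit1 call was also lost among cells with at least 1000 UMIs and among cells with at most 10% mitochondrial UMIs.

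Rsad2 in fibroblast-like cells had 59.8 and 157.7 CPM in TAK-981 tumours and 0 and 1.80 CPM in vehicle tumours, a log2 fold change of 6.26 ± 0.82 (SE, adjusted p = 0.0336). Ifit1 had 67.9 and 224 CPM in TAK-981 tumours and 11.9 and 6.31 CPM in vehicle tumours, a log2 fold change of 3.83 ± 0.65 (adjusted p = 0.0394). The TAK-981 values of both genes lay above both vehicle values. For Ifit3 the values were 45.0 and 239.7 CPM in TAK-981 tumours and 5.95 and 2.70 CPM in vehicle tumours, a log2 fold change of 4.88 ± 0.89 (adjusted p = 0.0458). Ifit3b passed with an adjusted p of 0.0341 and was at least 25.0-fold higher in TAK-981 tumours, taking 3 counts over both vehicle tumours in place of their 0. Isg15 had 2.22 ± 0.50 (adjusted p = 0.0974), Usp18 2.08 ± 0.63 (adjusted p = 0.246) and Ifit2 1.00 ± 0.76 (adjusted p = 0.736), and Ifit2 was the tested member whose treatments overlapped.

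Few fibroblast-like cells carried these UMIs. In TAK-981 tumours 76 and 103 such cells were analysed, and in vehicle tumours 105 and 231. One cell held 67 of 81 Rsad2 UMIs in TAK-981 tumour 1 and another 103 of 221 in TAK-981 tumour 2, where 5 and 23 cells had a Rsad2 UMI. Cells with at least 5 UMIs of the 8 genes numbered 18 and 31 in TAK-981 tumours and 4 and 4 in vehicle tumours. The median depth of fibroblast-like cells was 16093 and 13069 UMIs in TAK-981 tumours and 5707 and 4137 in vehicle tumours. Macrophage markers summed to 2057 and 725.6 CPM in fibroblast-like cells of TAK-981 tumours and 275 and 432.3 CPM in those of vehicle tumours, and 8 of the 12 markers were higher without overlap, with 0 and 0 markers at 0 in TAK-981 tumours and 1 and 3 in vehicle tumours. In the cells with at least 5 UMIs of the 8 genes the sum was 2733 and 1439 CPM in TAK-981 tumours, against 1634 and 305.1 CPM in the other fibroblast-like cells. Acinar markers, from pancreas enzyme genes, summed to 210.3 and 148.4 CPM in fibroblast-like cells of TAK-981 tumours and 22.3 and 6.31 CPM in those of vehicle tumours, 10 of 12 higher without overlap and 1 and 0 at 0 in TAK-981 tumours against 4 and 10 in vehicle tumours. Neutrophil markers summed to 194.0 and 372.4 CPM in TAK-981 tumours and 69.8 and 68.5 CPM in vehicle tumours, 3 of 9 higher without overlap and 2 and 1 at 0 in both treatments and Ly6g at 0 in all 4 tumours. The part of these markers in the result was not tested. As ratios to the level in macrophage-like cells, the 8 genes ran between 0.252 (Ifit2) and 2.32 (Ifit1) in TAK-981 tumour 1 and between 0.285 (Ifit2) and 2.29 (Ifit3) in TAK-981 tumour 2, and the 12 macrophage markers between 0.0129 and 0.0869 in TAK-981 tumour 1 and between 0.00181 and 0.0660 in TAK-981 tumour 2.

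In epithelial-like cells all 8 members passed the filter and all 8 had TAK-981 values above vehicle values without overlap. How many of all genes did so was not counted. No member was called by edgeR (0 higher and 0 lower, with 7 of 8 below 0.05 before adjustment), where 0.636% of 12731 genes were called higher. In vehicle tumours 1 and 2, Ifit2 had 5 and 2 UMIs, Ifit3b 3 and 11 and Cmpk2 3 and 0. Their counts in TAK-981 tumours carried these genes past the filter, and a call of lower was hardly open to them. Ifit3, with 4 and 30 UMIs in vehicle tumours, and Rsad2, with 12 and 2, passed partly through their TAK-981 counts. In DESeq2, 5 members passed. Here and below, shares of all genes are those of edgeR, and none is given beside counts from DESeq2. The fold changes ran between 1.43 and 3.51 on the log2 scale, with a median of 2.36, against 0.0062 for all genes. Leaving out TAK-981 tumour 2 gave 3 called members and leaving out vehicle tumour 1 gave 1. Usp18 came nearest, at 1.43 ± 0.29 (adjusted p = 0.0592), and Ifit2 had 3.51 ± 0.84 (adjusted p = 0.0850) with 5.24 and 2.06 CPM in TAK-981 tumours and 0.377 and 0.0934 CPM in vehicle tumours. Different clusters made up the class: a Prl-led cluster held 37 and 97 cells in TAK-981 tumours and 410 and 1478 in vehicle tumours. Inside that cluster the 8 genes summed to 101.4 and 47.4 CPM in TAK-981 tumours and 10.5 and 13.9 CPM in vehicle tumours, and inside the proliferating cluster (Cenpf, Top2a) to 67.1 and 25.4 CPM in TAK-981 tumours and 10.9 and 2.13 CPM in vehicle tumours. In a cluster led by Hspb1 and Areg, with 65 and 879 cells in TAK-981 tumours and 32 and 16 in vehicle tumours, the sum was 50.9 and 52.7 CPM in TAK-981 tumours and 38.5 and 10.5 CPM in vehicle tumours. A cluster led by Ttr, Ambp and Alb, with 311 and 173 cells in TAK-981 tumours and 13 and 1 in vehicle tumours, had 167.8 and 14.6 CPM in TAK-981 tumours and 11.7 and 0 CPM in vehicle tumours, and held 1221 UMIs of the 8 genes in TAK-981 tumour 1. A cluster led by Tff2 and Tff1 had 13 and 347 cells and 38.7 and 80.2 CPM in TAK-981 tumours, and 2 cells with 0 CPM in vehicle tumour 1. The differences within clusters were not tested. Macrophage markers in the class summed to 1062 and 250.8 CPM in TAK-981 tumours and 162.9 and 108.1 CPM in vehicle tumours, 9 of 12 higher without overlap and 0 and 0 at 0 in TAK-981 tumours against 1 and 0 in vehicle tumours. Acinar markers summed to 149.1 and 74.4 CPM in TAK-981 tumours and 18.7 and 5.28 CPM in vehicle tumours, 12 of 12 higher without overlap and 0 and 0 at 0 in TAK-981 tumours against 0 and 8 in vehicle tumours. Neutrophil markers summed to 132.2 and 54.2 CPM in TAK-981 tumours and 18.2 and 21.2 CPM in vehicle tumours, 8 of 9 higher without overlap and 1 and 1 at 0 in TAK-981 tumours against 0 and 1 in vehicle tumours. T or NK markers summed to 5.87 and 2.62 CPM in TAK-981 tumours and 0.905 and 0.467 CPM in vehicle tumours, 7 of 9 higher without overlap and 1 and 1 at 0 in TAK-981 tumours against 5 and 4 in vehicle tumours. The part of these markers in the result was not tested. As ratios to the level in macrophage-like cells, the 8 genes ran between 0.0695 (Rsad2) and 1.24 (Usp18) in TAK-981 tumour 1 and between 0.0124 (Rsad2) and 0.220 (Usp18) in TAK-981 tumour 2, and the 12 macrophage markers between 0.0188 and 0.142 in TAK-981 tumour 1 and between 0.00183 and 0.187 in TAK-981 tumour 2. The ranges of genes and markers overlapped in both tumours.

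In macrophage or monocyte-like cells, all 8 members passed the filter and 0 were called (7 below 0.05 before adjustment, 1 passing in DESeq2), where 0% of 10654 genes were called higher. Ifit3b had 16.3 and 31.8 CPM in TAK-981 tumours and 0.206 and 0 CPM in vehicle tumours (adjusted p = 0.0572). Its counts in TAK-981 tumours carried Ifit3b past the filter, and a call of lower was hardly open to it. Ifit3 had 42.6 and 104.8 CPM in TAK-981 tumours and 9.89 and 1.80 CPM in vehicle tumours, a log2 fold change of 3.28 ± 0.68 (adjusted p = 0.107). Both lacked overlap, as did 4 further members, and Rsad2 (1.88 ± 0.78) and Cmpk2 (1.42 ± 0.81) overlapped. Without TAK-981 tumour 1 the log2 fold changes were 3.81 for Ifit3 and 2.65 for Rsad2. Without TAK-981 tumour 2 they were 2.47 for Ifit3 and 0.14 for Rsad2. The median fold change was 2.11, against 0.0034 for all genes.

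Neutrophil-like cells had 5 members past the filter, 0 called, 4 with p below 0.05 before adjustment and 2 that passed in DESeq2, where 0.215% of 2330 genes were called higher. In TAK-981 tumours 136 and 298 UMIs of the 8 genes lay behind these values, and in vehicle tumours 460 and 52. Ifit3b (4.54 ± 0.82, adjusted p = 0.0659), Ifit3 (4.96 ± 1.03, adjusted p = 0.0956) and Ifit1 (2.74 ± 0.64, adjusted p = 0.117) had the lowest p-values. In TAK-981 tumours 1 cell held 6 of 10 and 10 of 14 Ifit3b UMIs, and 4 of 6 and 11 of 37 Ifit3 UMIs. Vehicle tumours had 5 and 0 Ifit3b and 7 and 0 Ifit3 UMIs. Counts in TAK-981 tumours thus carried both genes past the filter, and a call of lower was hardly open to them. Ifit1, with 27 and 5 UMIs in vehicle tumours, passed partly through its TAK-981 counts. Leaving out vehicle tumour 1 gave 3 called members and leaving out TAK-981 tumour 1 gave 1. Acinar markers summed to 3663 and 484.7 CPM in these cells in TAK-981 tumours and 80.4 and 3.58 CPM in vehicle tumours, with 7 of 12 higher without overlap and 0 and 5 markers at 0 in TAK-981 tumours against 2 and 11 in vehicle tumours. Their part in the result was not tested.

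Endothelial-like cells had the fewest members higher in TAK-981 tumours without overlap, 2 of 8. T or NK-like and dendritic-like cells had 4 of 8 each, so the treatments mixed there as well. Of 7 members past the filter 0 were called, 0 at an unadjusted p under 0.05 and 0 by DESeq2, where 0.684% of 4678 genes were called higher. Rsad2 had 64.8 and 8.03 CPM in TAK-981 tumours and 283.6 and 0 CPM in vehicle tumours, a log2 fold change of -1.76 ± 1.22 (adjusted p = 0.510). Its vehicle tumour 1 value is the one with 62 of 73 UMIs in 1 cell, and leaving that tumour out gave 2 members called higher. Rsad2 was called lower without TAK-981 tumour 1 (-4.27, adjusted p = 0.00785) and without vehicle tumour 2 (-2.90, adjusted p = 9.9e-05). Only 1 member passed the filter in T or NK-like cells (Isg15, 1.52 ± 0.68, adjusted p = 0.394) and in dendritic-like cells (Isg15, 1.34 ± 0.75, adjusted p = 0.477). Neither was called by edgeR, at unadjusted p of 0.0501 and 0.112, where 0% of 4343 and 0.367% of 3267 genes were called higher. DESeq2 did not call Isg15 in dendritic-like cells (adjusted p = 0.961). In T or NK-like cells DESeq2 gave it no adjusted p, so no call could be made there. Leaving out TAK-981 tumour 1 gave 3 called members in T or NK-like cells and 4 in dendritic-like cells, and in the second class leaving out vehicle tumour 1 gave 3 and vehicle tumour 2 gave 1.

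**Figure D3:**
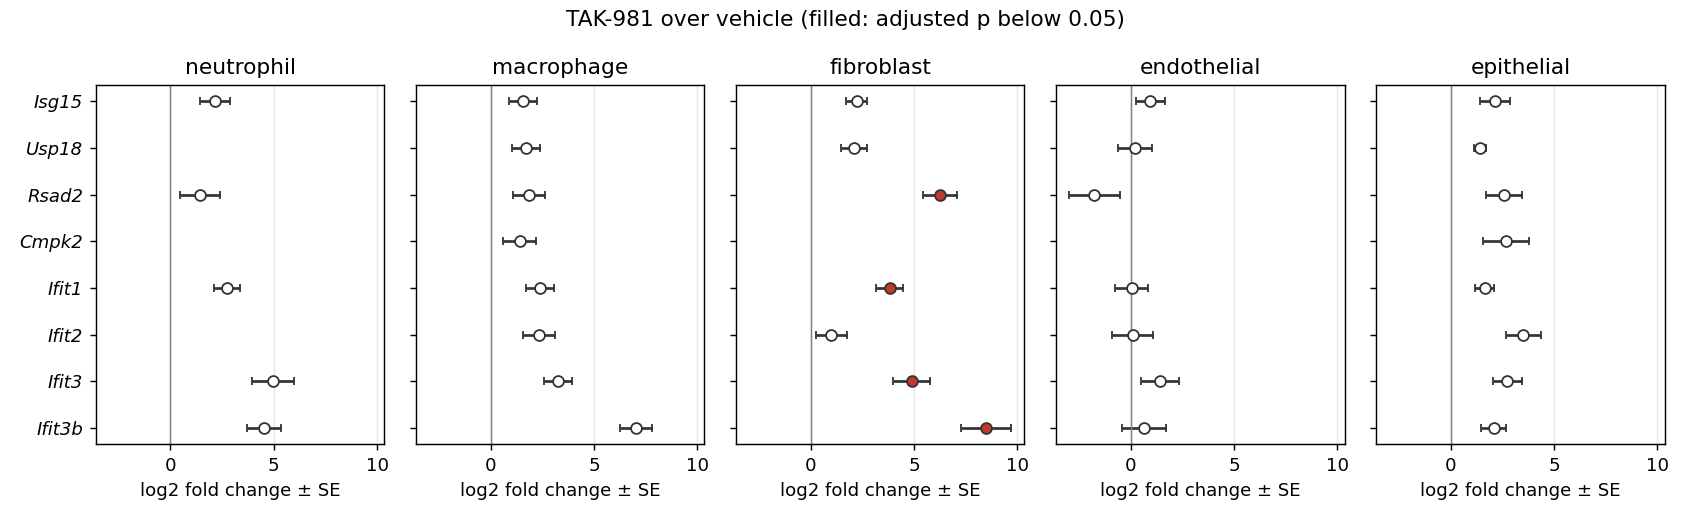
Log2 fold change of TAK-981 over vehicle with its SE for each gene that passed the filter on low counts in 5 classes (n = 2 tumours per group), with filled points for an adjusted p below 0.05. The filled points are Rsad2, Ifit1, Ifit3 and Ifit3b in fibroblast-like cells, and the Ifit3b value there is set by counts of 0 in vehicle tumours.

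Whether TAK-981 acted differently between classes was tested as the difference of its log2 effect in each class from that in epithelial-like cells. No member was called in any of the 6 classes by edgeR or by DESeq2, where 0.181% (T or NK-like), 0.271% (dendritic-like), 0.532% (fibroblast-like), 0.532% (endothelial-like), 0.582% (neutrophil-like) and 1.39% (macrophage-like) of genes were called in either direction by edgeR. At an unadjusted p under 0.05 stood 3 members in endothelial-like cells, 1 in fibroblast-like cells and 1 in macrophage-like cells. Ifit3b differed by 5.32 ± 1.58 in macrophage-like cells (adjusted p = 0.120), with its counts near 0 under vehicle. In endothelial-like cells Cmpk2 differed by -4.25 ± 1.37 (adjusted p = 0.217) and Rsad2 by -3.64 ± 1.40 (adjusted p = 0.343). Leaving out TAK-981 tumour 1 gave 1 call in endothelial-like, 1 in fibroblast-like and 2 in macrophage-like cells, and leaving out TAK-981 tumour 2 gave 1, 1 and 0 in the same order. The fibroblast-like calls were thus not shown to differ from the effect in epithelial-like cells.

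The UMIs of macrophage-like cells were concentrated in 1 small cluster, numbered 21, whose leading genes were Ly6c2, Ifit1bl1, Ifit2, Ms4a4c and Phf11b. Since members lead this cluster, its levels are given as a description with no test. It held 23 and 106 cells in TAK-981 tumours and 4 and 0 in vehicle tumours. These were 2.97 and 15.9% of macrophage-like cells in TAK-981 tumours and 0.271% in vehicle tumour 1. They carried 49.6 and 83.5% of the class's UMIs of the 8 genes in TAK-981 tumours and 8.39% in vehicle tumour 1. The summed level inside the cluster was 6062 and 7060 CPM in TAK-981 tumours and 10250 CPM in the 4 cells of vehicle tumour 1.

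Outside cluster 21 the macrophage-like level of the 8 genes was 196.4 and 207.7 CPM in TAK-981 tumours and 225.5 and 68.9 CPM in vehicle tumours, with overlap. Members lead the cluster left out, and its cells came mostly from TAK-981 tumours. Lower TAK-981 values in the remaining cells were thus partly set by the choice of cells. Whether the remaining cells responded to TAK-981 cannot be read from the overlap. Isg15 there had 109.4 and 74.3 CPM in TAK-981 tumours and 115.6 and 24.9 CPM in vehicle tumours. Rsad2 had 27.9 and 58.4 CPM in TAK-981 tumours and 54.5 and 23.4 CPM in vehicle tumours. Ifit3, with 20.5 and 19.6 CPM in TAK-981 tumours and 8.05 and 1.80 CPM in vehicle tumours, and Ifit3b, with 4.72 and 5.71 CPM in TAK-981 tumours and 0.207 and 0 CPM in vehicle tumours, were the 2 of 8 genes without overlap.

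**Figure D4:**
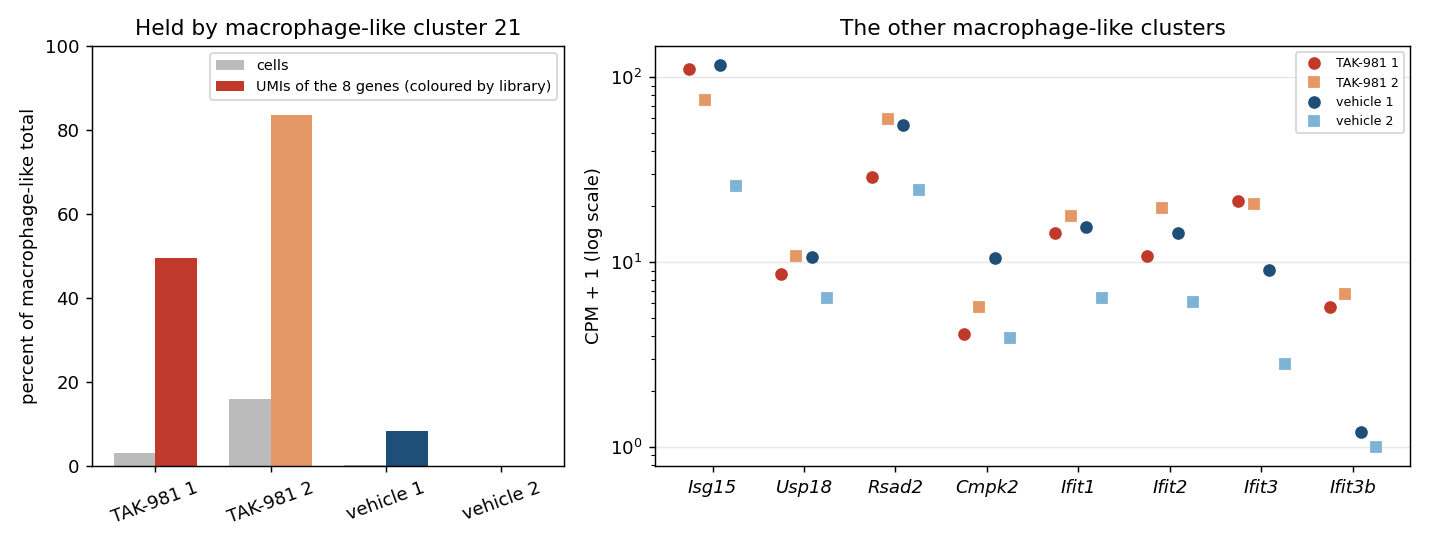
Left, percent of macrophage-like cells (grey) and of their UMIs of the 8 genes (coloured) that lay in cluster 21 in each library, with 49.6 and 83.5% of UMIs in TAK-981 tumours. Right, CPM + 1 (log scale) of each gene in the other macrophage-like clusters, where only the Ifit3 and Ifit3b points of TAK-981 tumours lie above both vehicle points. Leaving out cluster 21 removes cells high in these genes.

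Counted by cells, a UMI of any of the 8 genes was found in 38.5 and 69.0% of neutrophil-like cells of TAK-981 tumours after every cell had been thinned to 500 UMIs (exact 95% binomial intervals 23.4 to 55.4% and 52.9 to 82.4%). In vehicle tumours the share was 23.6 and 5.51% (20.1 to 27.4% and 3.44 to 8.30%). Macrophage-like cells had 10.9 and 18.7% in TAK-981 tumours and 7.10 and 1.94% in vehicle tumours. Fibroblast-like cells had 10.5 and 22.3% in TAK-981 tumours and 7.62 and 2.60% in vehicle tumours. In epithelial-like cells the share was 5.12 and 2.58% in TAK-981 tumours and 0.538 and 0.591% in vehicle tumours. Before thinning, with median depths of 21372 and 23576 UMIs in TAK-981 tumours and 16515 and 10591 in vehicle tumours, the epithelial-like share was 38.4 and 25.5% in TAK-981 tumours and 9.54 and 3.12% in vehicle tumours. Unthinned neutrophil-like shares were 51.3 and 78.6% in TAK-981 tumours and 27.6 and 6.30% in vehicle tumours, at median depths of 1561 and 1457 UMIs in TAK-981 tumours and 660 and 623 in vehicle tumours. No class is known to lack these genes, so free RNA cannot be read from one. The thinned share in B-like cells of vehicle tumour 1 was 1.40% (6 of 430), and intervals cover counting error only.

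**Figure D5:**
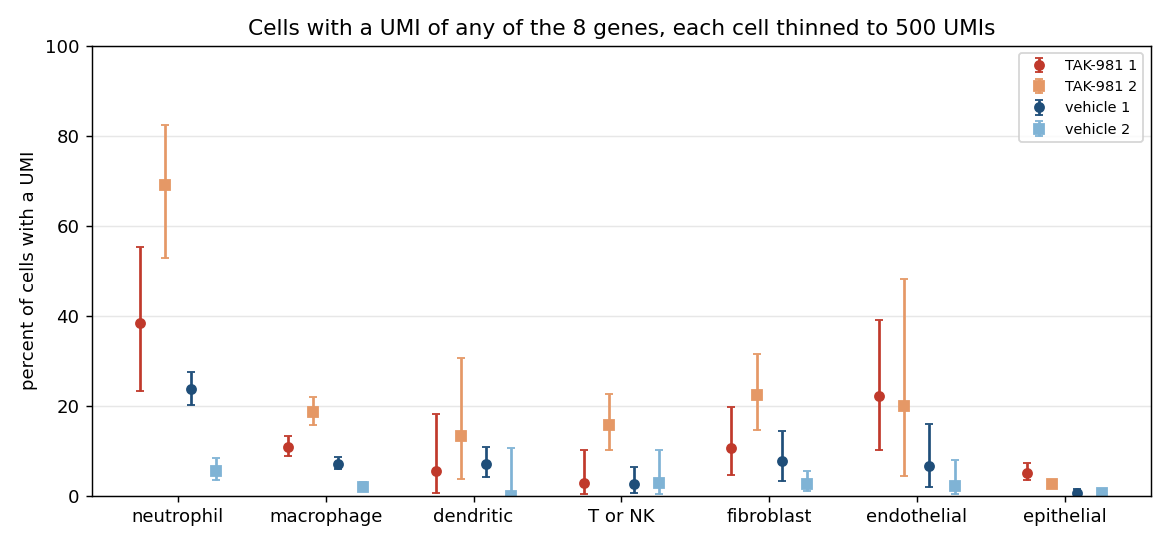
Percent of cells of each class with a UMI of any of the 8 genes after thinning each cell to 500 UMIs, with exact 95% binomial intervals as bars. Neutrophil-like cells are the highest class in every library, between 5.51 and 69.0%.

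Within macrophage-like cells, each thinned to 1000 UMIs, the share of cells with an Isg15 UMI was higher among cells that also had a Rsad2 UMI, in 4 of 4 libraries. An Isg15 UMI was found in 46.7 and 68.4% of the 15 and 79 cells with a Rsad2 UMI in TAK-981 tumours, against 9.74 and 10.5% of the other macrophage-like cells. In vehicle tumours it was found in 59.5 and 33.3% of the 42 and 9 cells with a Rsad2 UMI, against 7.73 and 1.97% of the others. Ifit1, Ifit2, Ifit3, Usp18 and Cmpk2 were each found in between 25.3 and 41.8% of the cells with a Rsad2 UMI in TAK-981 tumours and in between 11.1 and 33.3% in vehicle tumours, against between 0.735 and 3.09% of the other cells in TAK-981 tumours and between 0.131 and 1.08% in vehicle tumours. Ifit3b was found in 6.67 and 25.3% of the cells with a Rsad2 UMI in TAK-981 tumours and in 0 and 0% in vehicle tumours. Cells of 1 tumour are not replicates, and these shares carry no test.

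Other genes of the pathway were taken from lists with a known role. In epithelial-like cells Irf7, the transcription factor that amplifies interferon production, rose under TAK-981 (3.38 ± 0.47 log2, adjusted p = 0.0257), 1 of 10 tested genes of the receptor and ISGF3 list. Ube2l6, the E2 enzyme of ISG15 conjugation, rose by 2.33 ± 0.39 (adjusted p = 0.0405), 1 of 4 in its list, and Trim30a by 4.15 ± 0.60 (adjusted p = 0.0281), 1 of 36 other antiviral genes. Of 14 interferon-gamma response genes 2 rose, Gbp3, a guanylate-binding GTPase (4.47 ± 0.77, adjusted p = 0.0438), and Irf8, a transcription factor of myeloid cells (3.97 ± 0.64, adjusted p = 0.0358). Irf8 had 6.49 and 7.46 CPM in TAK-981 tumours and 0.528 and 0.140 CPM in vehicle tumours. In vehicle tumours Trim30a had 0.452 and 0.140 CPM and Gbp3 0.302 and 0.0934 CPM. Counts in TAK-981 tumours carried Irf8, Trim30a and Gbp3 past the filter on low counts. Most macrophage, neutrophil and T or NK markers were also higher in this class in TAK-981 tumours, and their part in these results was not tested. No gene of these lists was called lower, with positive fold changes in 28 of 36 antiviral, 8 of 10 receptor and ISGF3, 3 of 4 conjugation and 13 of 14 interferon-gamma genes. By the edgeR test 15, 4, 2 and 9 of them were at an unadjusted p under 0.05. Of 6 SUMO pathway genes 0 were called, although all 6 had positive fold changes (median 0.43) and 2 were at an unadjusted p under 0.05. The medians were 1.03 for the antiviral list and 1.40 for the interferon-gamma list.

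Macrophage-like cells had 0 called of 38 other antiviral, 10 receptor and ISGF3, 4 conjugation and 16 interferon-gamma genes, by the same test (11, 1, 2 and 7 at an unadjusted p under 0.05), and medians of 0.71, 0.19, 0.91 and 1.07. In the remaining classes 2 list genes were called, and both are named here after their values were seen: Cxcl10, a T cell attracting chemokine, in fibroblast-like cells (3.28 ± 0.52, adjusted p = 0.0344) and Bst2 (tetherin) in endothelial-like cells (2.15 ± 0.47, adjusted p = 0.0487). Cxcl10 had 182.2 and 305.4 CPM in TAK-981 tumours and 34.2 and 10.8 CPM in vehicle tumours. Interferon transcripts themselves were rare. The 20 type I and type III interferon genes on the list summed to 2 and 14 UMIs in TAK-981 tumours and 4 and 2 in vehicle tumours over all cells. Ifng, the gene of interferon-gamma, had 79 and 43 UMIs in TAK-981 tumours and 17 and 2 in vehicle tumours. These UMIs are not scaled to depth. Total counts were 26376608 and 63898758 in TAK-981 libraries and 24411656 and 29041348 in vehicle libraries, so the counts do not compare levels between tumours.

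Across the 28 sums of a class and a library, the genes outside the members whose log2 level followed the mean of the members most closely were Rtp4 (r = 0.89), Irf7 (0.88), Il18bp (0.85), Herc6 (0.84), Ifi35 (0.82), Zbp1 (0.82), Igtp (0.81), Oas1a (0.79), Ifih1 (0.78) and Gbp3 (0.77). Of these 10, 9 were on the interferon lists and Il18bp was not. Between pairs of members r was highest for Isg15 and Ifit1 (0.92) and lowest for Ifit2 and Ifit3b (0.54). These are descriptions over sums that share libraries, depth and treatment.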

How the data were processed

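The values are raw UMI counts per gene and cell barcode, deposited by the authors for 4 libraries of 10x 3′ v3.1 chemistry, per the labels, made with Cell Ranger 6.1.2 on mm10, per the submitters' processing notes. Total counts were 26376608 and 63898758 in TAK-981 libraries and 24411656 and 29041348 in vehicle libraries, and 0 count columns were unused. Replicate counts differed far beyond sampling noise (chi-squared per degree of freedom 127.2 and 189.2). The mouse was the replicate.

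The cell limits were 500 UMIs, 250 genes and a mitochondrial share of 20%. Scrublet scores in scanpy 1.11.5 (Python 3.11.15) removed 41, 81 doublets from TAK-981 libraries and 168, 146 from vehicle libraries. Clustering used 2000 variable genes without 100 interferon genes, 30 components, 15 neighbours and resolution 1.0. A cluster was named at a marker score of at least 0.25 with 3 markers in at least 10% of its cells. It stayed unnamed if its UMIs were low and none of its markers was among its leading genes. In all, 425, 320 cells of TAK-981 libraries and 576, 626 of vehicle libraries stayed unnamed. Class sums were tested with edgeR 4.0.16 (R 4.3.3) quasi-likelihood F tests after filterByExpr and TMM scaling, with Benjamini-Hochberg adjustment over all genes; DESeq2 1.42.0 was an alternative. Tests were tried on simulated data with known changes. CPM was computed from these counts. Members in every class past the filter were named, with up to 4 called genes per list in epithelial-like and macrophage-like cells, and 10 most similar genes. The members and lists were chosen with earlier results of these data known. No batch is named in the sources, so any batch that followed treatment cannot be told apart from it.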

Additional observations from a re-analysis of the deposited data

How the results depend on the processing

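Settings that left a count within 1.5 times its value are not listed. No share of all genes called is given for the other settings or for fits with 1 tumour left out. Their counts of members thus have no background beside them. Without a filter on low counts, members called for TAK-981 over vehicle were 2 in dendritic-like, 6 in epithelial-like, 7 in fibroblast-like, 8 in macrophage-like and 3 in neutrophil-like cells, T or NK-like over epithelial-like cells gave 5, and differences from the epithelial-like effect gave 3 in endothelial-like, 2 in fibroblast-like and 1 in macrophage-like cells. DESeq2 gave 5 in epithelial-like, 1 in macrophage-like and 2 in neutrophil-like cells, and 5 for T or NK-like over epithelial-like cells. With no scaling beyond totals the counts were 5 in epithelial-like and 1 in neutrophil-like cells and 2 for T or NK-like over epithelial-like cells. Without doublet removal fibroblast-like cells had 2. With interferon genes kept in clustering, neutrophil-like cells had 1, and T or NK-like and dendritic-like cells over epithelial-like cells had 2 and 2. At 1000 UMIs per cell or more, T or NK-like cells over epithelial-like cells had 0, neutrophil-like cells 4, and neutrophil-like over macrophage-like cells 2. At most 10% mitochondrial UMIs gave 2 for T or NK-like cells over epithelial-like cells, and endothelial-like cells had too few cells to be fitted there. Over epithelial-like cells, the TAK-981 libraries alone gave 5 members in T or NK-like, 4 in endothelial-like and 7 in fibroblast-like cells, and the vehicle libraries alone gave 0 in T or NK-like, 3 in dendritic-like and 2 in fibroblast-like cells. Without the small epithelial-like cluster T or NK-like cells had 3. These fits were chosen after seeing the data. The replicate numbers share only a number, since deviations of same-numbered tumours correlated between -0.14 and -0.05, and a replicate block gave 1 called member (Isg15) in epithelial-like cells in place of 0 and changed no other count of members. Without the library block in the class comparison (no replicate block) T or NK-like cells had 0.

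With 1 tumour left out, where the lone tumour of its group is assumed to vary like the others, counts of members called higher for TAK-981 over vehicle ran between 0 and 3 in T or NK-like, 0 and 4 in dendritic-like, 0 and 2 in endothelial-like, 0 and 3 in epithelial-like, 0 and 7 in macrophage-like and 0 and 3 in neutrophil-like cells. Rsad2 in endothelial-like cells was called lower without TAK-981 tumour 1 (-4.27, adjusted p = 0.00785) and without vehicle tumour 2 (-2.90, adjusted p = 9.9e-05). Over epithelial-like cells they ran between 0 and 6 in T or NK-like, 0 and 6 in dendritic-like, 0 and 8 in endothelial-like, 3 and 7 in fibroblast-like and 4 and 8 in neutrophil-like cells, and between 1 and 4 for neutrophil-like over macrophage-like cells. Differences from the epithelial-like effect ran between 0 and 1 in endothelial-like, 0 and 1 in fibroblast-like and 0 and 2 in macrophage-like cells. Log2 fold changes that turned sign for TAK-981 over vehicle ran in endothelial-like cells between -0.85 and 1.79 for Ifit1, -0.96 and 3.62 for Ifit2, -0.51 and 6.14 for Ifit3b, -4.27 and 6.69 for Rsad2, -0.0206 and 3.20 for Isg15 and -0.74 and 2.10 for Usp18, and Ifit1 there was -0.0018 without the filter on low counts. Ifit2 in fibroblast-like cells ran between -0.61 and 1.74, Cmpk2 in macrophage-like cells between -0.20 and 2.83 and Rsad2 in neutrophil-like cells between -0.67 and 3.83. Over epithelial-like cells, T or NK-like Ifit1 ran between -2.16 and 3.01, dendritic-like Isg15 between -2.49 and 3.75, Usp18 between -3.18 and 1.73, Ifit3 between -1.79 and 3.85 and Ifit1 between -2.01 and 3.07, endothelial-like Ifit3 between -1.97 and 4.42 and Ifit3b between -0.67 and 5.14, and neutrophil-like Ifit2 between -0.86 and 5.65 and Ifit3 between -0.70 and 5.38. The cause was not tested. Of the log2 fold changes under all alternatives, 1019 kept direction and side of the threshold, 64 crossed it upward, 76 downward and 22 turned sign. Thinning to 1000 UMIs moved 18 of 36 shares of cells beyond their counting interval.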
